A study of Mus musculus with 6 samples.

Results

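The genes described here carry bile acids across the enterocyte and report their arrival: Slc10a2, Fabp6, Slc51a, Slc51b, Nr1h4, Fgf15 and Nr0b2. They were chosen by symbol and are 7 of the 32285 features in the deposited count matrices. The data are single-cell RNA-seq of small intestinal epithelium in 3 libraries of control littermates and 3 libraries of IE-HuR-/- mice. IE-HuR-/- mice carry a villin-Cre transgene, which is active throughout the intestinal epithelium, and floxed alleles of Elavl1, the gene that encodes the RNA-binding protein HuR. Control littermates carry the same floxed alleles (HuRfl/fl) without Cre, although their genotype is labelled wild-type. All mice were on a C57BL/6 background and 6 to 8 weeks old. The labels describe normal feeding and drinking, whereas the methods describe food withdrawal before experiments. The methods name the middle small intestine as the source for histology and for protein and RNA. For the single-cell libraries they name small intestinal mucosa, and the segment that entered each library is not given.

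Bile acids are made from cholesterol in the liver, released into the gut to dissolve fat and then recovered, mainly by enterocytes of the distal small intestine. SLC10A2, the apical sodium-dependent bile acid transporter ASBT, takes them up from the lumen, FABP6 binds them in the cytosol, and the SLC51A/SLC51B heterodimer (OSTα/OSTβ) passes them across the basolateral membrane to the portal blood. Bile acids in the enterocyte activate the nuclear receptor FXR, encoded by Nr1h4, which induces Fabp6, Slc51a, Slc51b, the hormone gene Fgf15 and the corepressor gene Nr0b2 (SHP). FGF15 travels to the liver and lowers bile acid synthesis. Enterocytes of the proximal small intestine express little Slc10a2 or Fabp6.

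The members lie apart in the genome and share no neighbourhood. In GENCODE vM21 on build GRCm38, Slc10a2 is at chr8:5083219-5105351, Fabp6 at chr11:43596049-43601540, Slc51a at chr16:32474504-32487879, Slc51b at chr9:65412714-65422955 and Nr1h4 at chr10:89454234-89533585, all on the minus strand. Fgf15 is at chr7:144896531-144900953 and Nr0b2 at chr4:133553376-133556536, both on the plus strand. Slc51a overlaps Pcyt1a, Slc51b overlaps Rasl12 and Fgf15 overlaps Gm26793 and Gm39119, in each case on the opposite strand. How strand was treated in counting is not given in the sources used here, and without strand the reads of overlapping genes cannot be told apart.

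Upstream sequences are shown for the 3 members with a recorded match to a binding motif of the factors known to act on these genes. They come from RefSeq on GRCm38.p6, cover up to 250 bases before the start and run 5′ to 3′ on the gene's strand. RefSeq promoters were found for 6 of 7 members. Fgf15 had none and was not searched, and the others not shown had no recorded match to the motifs below. Capitals in the Fabp6 sequence (chr11:43601563-43601812, minus strand) mark matches with up to 2 mismatches to AGGTCANTGACCT, the inverted repeat with 1 base between its arms that FXR and its partner RXR bind. Capitals in the Slc10a2 sequence (chr8:5105352-5105537, minus strand, shortened to 186 bases so that it holds no transcribed base) mark the reverse complement of TGATAA, a motif of GATA factors. Capitals in the Slc51a sequence (chr16:32487880-32488129, minus strand) mark a match on the opposite strand, with 1 mismatch, to CAAAGTCCA, a motif of HNF4.
Fabp6: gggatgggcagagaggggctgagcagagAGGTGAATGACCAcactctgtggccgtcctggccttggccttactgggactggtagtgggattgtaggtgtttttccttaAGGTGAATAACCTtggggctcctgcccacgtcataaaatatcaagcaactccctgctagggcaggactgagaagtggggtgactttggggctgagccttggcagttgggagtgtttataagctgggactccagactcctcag
Slc10a2: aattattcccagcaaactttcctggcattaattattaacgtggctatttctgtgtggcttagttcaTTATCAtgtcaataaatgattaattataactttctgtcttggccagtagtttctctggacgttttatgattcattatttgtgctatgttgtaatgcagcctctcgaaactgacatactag
Slc51a: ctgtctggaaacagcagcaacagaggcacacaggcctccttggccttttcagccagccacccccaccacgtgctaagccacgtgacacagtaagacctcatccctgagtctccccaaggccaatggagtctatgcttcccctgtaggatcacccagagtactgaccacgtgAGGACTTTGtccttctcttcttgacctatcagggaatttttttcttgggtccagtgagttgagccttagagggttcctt
The Fabp6 matches lie 222 to 210 and 142 to 130 bases before the start, each with 2 mismatches. The inverted repeat was found in 0.959% of 32851 promoters searched on both strands with the same allowance. Among the 6 members searched, which leave out Fgf15, it was recorded in Fabp6 only. The Slc10a2 match lies 184 to 179 bases before the RefSeq start, and its motif was found in 7.94% of promoters. The 64 bases next to that start lie within the GENCODE gene and were left off the printed sequence. The Slc51a match lies 79 to 71 bases before the start, and its motif was found in 7.05%. A match describes the letters only and is not a measured binding site.

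The matrices held 60706 barcodes and 428980031 unique molecular identifiers (UMIs, 1 per captured transcript molecule), with 59518012 to 91818560 UMIs per library. Pairs of libraries shared 22 to 44 barcodes, or 0.25 to 0.443%. Of 60431 barcodes with at least 200 genes, 45686 were enterocyte-like by marker genes, with 6132 to 12266 per library and a median of 1408 UMIs per cell. All 16 enterocyte markers were detected in every library, at a summed 80874 to 85429 CPM (UMIs of a gene scaled to a total of 1e6) in control and 84077 to 87938 in IE-HuR-/- enterocyte-like cells. Epithelial markers summed to 17612 to 18347 and 21566 to 22460 CPM in these cells, B or plasma markers to 1.96 to 5.33 and 17.7 to 28.6 CPM, T or NK markers to 126 to 234 and 175 to 233 CPM, and fibroblast markers to 1.90 to 3.70 and 0.864 to 1.53 CPM. The part of these markers in the results was not tested. The enterocyte gate used none of the members. Elavl1 itself was measured at 29.7 ± 1.65 CPM in control and 30.1 ± 0.498 CPM in IE-HuR-/- enterocyte-like cells (SD, n = 3 each, log2 fold change 0.17, edgeR adjusted p = 0.00396). Reads of the targeted transcript did not fall with the label, so IE-HuR-/- names a label here and every direction is one between labels. In the paper, staining for HuR protein was almost entirely lost from the epithelium of IE-HuR-/- mice. RNA counts and protein staining are different measures, and whether these counts would show the deletion was not tested.

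In enterocyte-like cells, 7 of 7 members had higher TMM-scaled levels under the IE-HuR-/- label. The size of the rise ran from 5.02-fold for Fabp6 to 1.19-fold for Nr1h4. The comparison summed raw UMIs per library and used edgeR's quasi-likelihood test on all genes, with Benjamini-Hochberg adjustment and a threshold of 0.05. Of 13010 genes tested, 57.8% passed, so a member that passes is not unusual by that alone. The median log2 fold change was 0.82 over the members and −0.038 over all genes. Over all epithelial cells together, 7 of 7 members were higher, where 51.5% of 14050 genes passed. Of these 49901 cells, 45686 were the enterocyte-like cells themselves, so this is not an independent result. The levels below are CPM of the enterocyte-like total, and fold changes come from the fit with TMM scaling between libraries.

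Slc10a2, the uptake transporter, was measured at 48.9, 49.5 and 48.1 CPM in the control libraries. It was at 111, 129.8 and 108 CPM in the IE-HuR-/- libraries, and the groups did not overlap. Its log2 fold change was 1.40 (SE 0.0685, edgeR adjusted p = 1.64e-08), or 2.64-fold.

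Fabp6, the cytosolic bile acid binding protein, moved furthest of the members. Its levels were 665, 720.2 and 600.1 CPM in control and 2919, 3007 and 3060.4 CPM in IE-HuR-/- libraries. Every IE-HuR-/- library thus lay over 4 times above the highest control. The log2 fold change was 2.33 (SE 0.0538, edgeR adjusted p = 3.13e-18), and it ranked 87 of 13010 genes by size of rise.

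The exporter subunits changed less. Slc51a was at 279.5, 290.9 and 301 CPM in control and 326, 309.8 and 323 CPM in IE-HuR-/- libraries, apart by a small margin (log2 fold change 0.29, SE 0.0422, edgeR adjusted p = 3.32e-06). Slc51b was at 195, 201 and 202 CPM in control and 271, 284 and 288 CPM in IE-HuR-/- libraries. Its log2 fold change was 0.65 (SE 0.0406, edgeR adjusted p = 2.25e-12). The groups did not overlap for either subunit.

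Nr1h4, which encodes FXR, was at 14.9, 15.1 and 15.03 CPM in control and 16.5, 14.9 and 16.9 CPM in IE-HuR-/- libraries. The groups overlapped on this unscaled level. The TMM-scaled log2 fold change was 0.25 (SE 0.0561, edgeR adjusted p = 0.000483), and without TMM scaling it was 0.10 and did not pass (edgeR adjusted p = 0.129).

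Fgf15 and Nr0b2, both induced by FXR, were measured at low levels. Fgf15 was at 1.92, 1.59 and 1.80 CPM in control and 6.84, 6.94 and 5.47 CPM in IE-HuR-/- libraries, from 323 and 912 UMIs in all. Its log2 fold change was 2.01 (SE 0.116, edgeR adjusted p = 5.66e-13), or 4.04-fold. Nr0b2 was at 0.861, 0.718 and 1.14 CPM in control and 1.43, 1.31 and 1.53 CPM in IE-HuR-/- libraries, from 162 and 203 UMIs. Its log2 fold change was 0.82 (SE 0.192, edgeR adjusted p = 0.000804). Neither gene's groups overlapped.

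**Figure D1:**
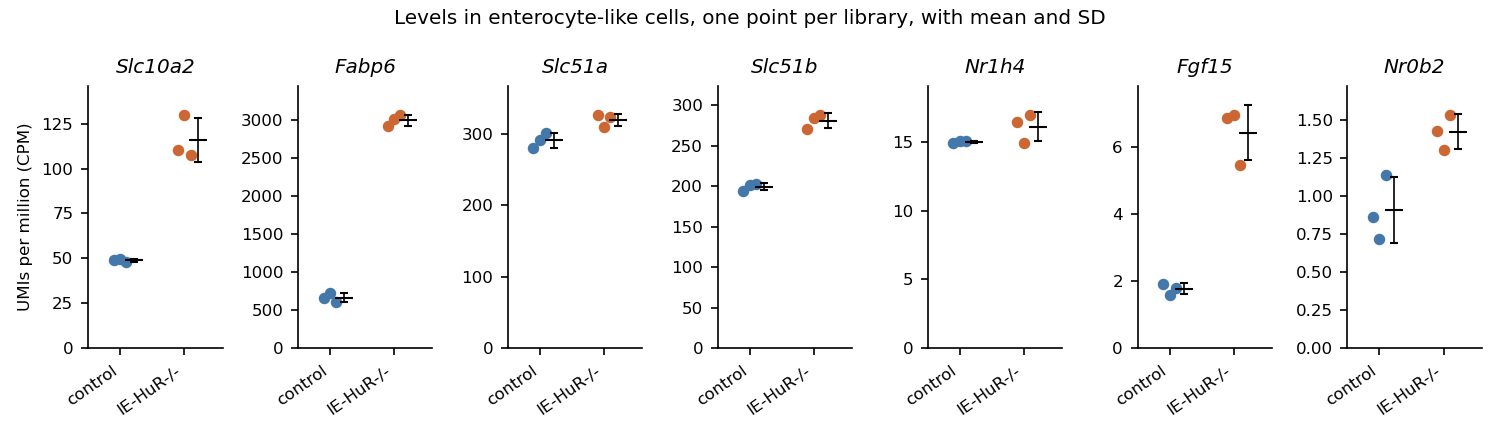
Level of each member in enterocyte-like cells, in CPM of the class, on linear axes that start at 0, with 1 point per library and a bar for the mean and SD of the 3 libraries of a label. Fabp6, Fgf15 and Slc10a2 show the widest gaps between labels (661.9 against 2996, 1.77 against 6.42 and 48.8 against 116 CPM on average), and only the Nr1h4 panel has overlapping groups.

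Shares of enterocytes with the uptake genes were counted next. Each cell was thinned to 2000 UMIs, which kept 11010 of 26906 control and 8026 of 18780 IE-HuR-/- enterocyte-like cells. Cells with at least 1 Slc10a2 UMI made up 4.80, 4.97 and 5.25% of control and 9.60, 8.88 and 8.77% of IE-HuR-/- cells. The means were 5.004 ± 0.228% and 9.08 ± 0.454% (SD, n = 3 each, exact permutation p = 0.1, adjusted p = 0.14 over 7 share tests), and 0.1 is the smallest p that 3 against 3 libraries allow. Without thinning the shares were 7.01% and 13.5%.

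Cells with at least 1 Fabp6 UMI made up 12.4 ± 1.86% of control and 32.3 ± 0.873% of IE-HuR-/- enterocyte-like cells (SD, n = 3 each, exact permutation p = 0.1, adjusted p = 0.14). Most of these cells cannot be told from background. T or NK-like cells should lack the gene. At the same thinned depth they had a Fabp6 UMI in 2.59 to 10.6% of control and 25.9 to 28.0% of IE-HuR-/- cells. Over whole classes, including cells too shallow to thin, median depths were 4964 UMIs in T or NK-like and 1408 in enterocyte-like cells. These medians do not describe the thinned cells alone. For Slc10a2 the T or NK-like shares were 0.862 to 1.72% and 2.58 to 2.93%. A second random thinning of the same T or NK-like cells gave 4.09 to 10.3% and 25.5 to 28.5% for Fabp6, and 0.647 to 2.21% and 2.71 to 3.91% for Slc10a2. The Slc10a2 share was below the enterocyte-like share of every library in both draws. Summed T or NK-like levels were 3.24 to 13.2% of the enterocyte-like level for Fabp6 and 6.61 to 18.9% for Slc10a2.

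A minimum that separated enterocytes from this background was therefore used for Fabp6, chosen after the distribution had been seen. Cells with at least 10 Fabp6 UMIs of 2000, called Fabp6-high here, made up 3.40, 3.40 and 3.82% of control and 12.2, 10.9 and 10.6% of IE-HuR-/- enterocyte-like cells. The mean share was 3.54 ± 0.240% against 11.2 ± 0.843% (SD, n = 3 each, exact permutation p = 0.1, the smallest possible). Only 2 of 1962 control and 1 of 2440 IE-HuR-/- T or NK-like cells reached that minimum, and 0 of 665 and 0 of 274 erythroid-like cells did. With a minimum of 5 UMIs the mean shares were 4.81% and 13.1%, and with 20 UMIs 2.37% and 8.47%.

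**Figure D2:**
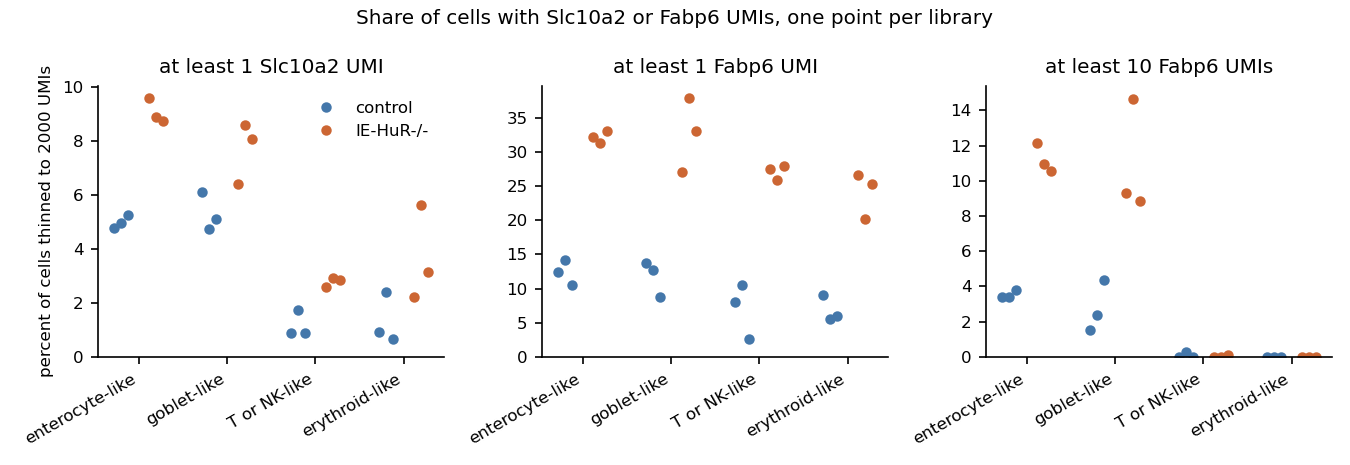
Percent of cells, after thinning to 2000 UMIs, with at least 1 Slc10a2 UMI (left), at least 1 Fabp6 UMI (middle) and at least 10 Fabp6 UMIs (right) in 4 cell classes, with 1 point per library and linear axes that start at 0. At least 1 Fabp6 UMI was found in 25.9 to 28.0% of IE-HuR-/- T or NK-like cells, whereas 10 or more were found in 3.40 to 3.82% of control and 10.6 to 12.2% of IE-HuR-/- enterocyte-like cells and almost never in T or NK-like or erythroid-like cells.

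The Fabp6-high cells held nearly all Fabp6 transcripts. They carried 86.8 to 89.9% of the Fabp6 UMIs of control and 92.8 to 93.2% of those of IE-HuR-/- thinned enterocyte-like cells. Cells with no Fabp6 UMI made up 85.8 to 89.5% of control and 66.9 to 68.6% of IE-HuR-/- cells. Cells with 2 to 4, 5 to 9 and 10 to 19 UMIs numbered 208, 142 and 123 of 11010 in control and 423, 153 and 220 of 8026 in IE-HuR-/- libraries, and those with 20 or more numbered 261 and 680. The median Fabp6-high cell held 27, 28 and 23.5 Fabp6 UMIs in control and 31, 37 and 42 in IE-HuR-/- libraries. Since the minimum was set on Fabp6 itself, a rise per cell would also carry more cells past it, and a larger share of such cells and a higher level per cell cannot be told apart from these values.

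**Figure D3:**
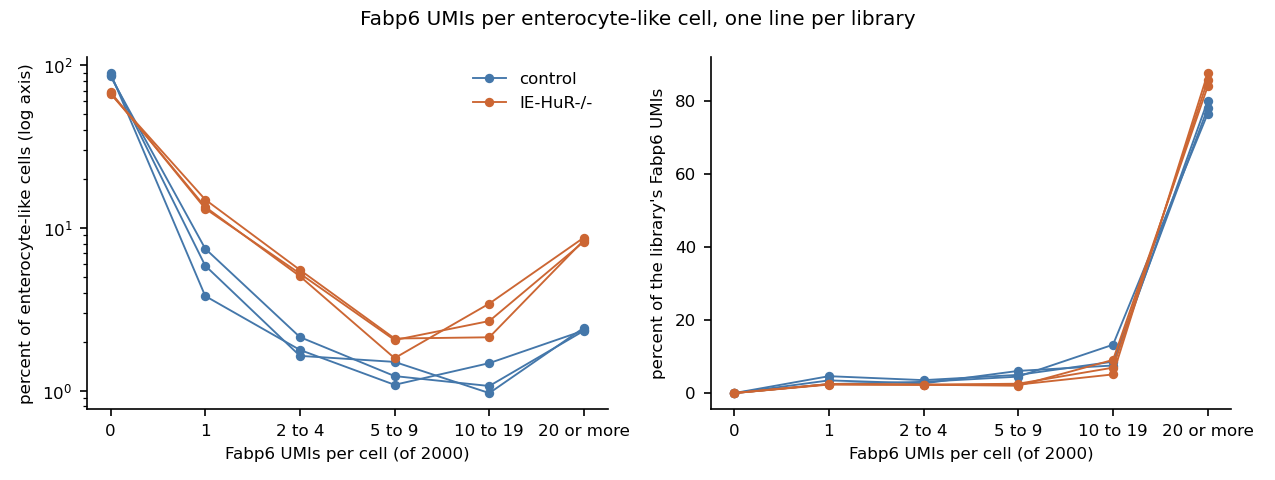
Percent of thinned enterocyte-like cells (left) and percent of all their Fabp6 UMIs (right) by the number of Fabp6 UMIs in a cell, with 1 line per library. Cells with 20 or more Fabp6 UMIs made up 2.33 to 2.44% of control and 8.25 to 8.74% of IE-HuR-/- cells and held 76.7 to 80.2% and 84.1 to 87.7% of the Fabp6 UMIs.

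Slc10a2 went with Fabp6 in the same cells under both labels. Among Fabp6-high cells, 42.5, 43.8 and 63.6% had a Slc10a2 UMI in control and 49.5, 50 and 44.9% in IE-HuR-/- libraries, and the groups overlapped (exact permutation p = 1, n = 3 each). Among the other enterocyte-like cells the shares were 3.47, 3.60 and 2.93% and 4.07, 3.84 and 4.504%, with groups apart (exact permutation p = 0.1, n = 3 each). The Slc10a2 shares of T or NK-like cells, given above, were also higher under the IE-HuR-/- label. Of Slc10a2-positive cells, 63.0 ± 4.89% in control and 80.2 ± 2.03% in IE-HuR-/- libraries had a Fabp6 UMI, against 9.70 ± 2.30% and 27.5 ± 1.21% of Slc10a2-negative cells (SD, n = 3 each, exact permutation p = 0.1 for each difference between labels). The log2 odds ratio of carrying both was 4.01 ± 0.692 in control and 3.41 ± 0.263 in IE-HuR-/- libraries and did not differ beyond its spread (SD, n = 3 each, exact permutation p = 0.3). With 2 UMIs required of each gene, which removes much of the background, it was 5.53 and 5.85.

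On the unscaled level of thinned cells, Slc10a2 per Fabp6-high cell was close under both labels. In thinned Fabp6-high cells Slc10a2 was at 582 ± 108 CPM in control and 593 ± 31.4 CPM in IE-HuR-/- libraries (SD, n = 3 each, exact permutation p = 1). In the other enterocyte-like cells it was at 26.2 ± 5.82 and 28.7 ± 3.79 CPM (SD, n = 3 each, exact permutation p = 0.7). Fabp6-high cells held 438 of 1024 Slc10a2 UMIs in control (42.8%, exact 95% interval 39.7 to 45.9%) and 1069 of 1478 in IE-HuR-/- cells (72.3%, 70.0 to 74.6%). Such intervals pool UMIs over libraries and cover counting error only. Fabp6-high cells were 3.49% of control and 11.2% of IE-HuR-/- cells, so the share of UMIs they hold would rise at an unchanged level per cell. Over all thinned enterocyte-like cells Slc10a2 was at 46.1 ± 2.83 CPM in control and 92.1 ± 5.58 CPM in IE-HuR-/- libraries, with groups apart. Within each kind of cell its unscaled level differed by less than the spread between libraries, whereas the TMM-scaled level, given next, did not do so throughout. The part of the share of Fabp6-high cells in the Slc10a2 rise was not tested.

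Unthinned sums of the same cells were then fitted with edgeR. The Slc10a2 log2 fold change was 0.38 in Fabp6-high cells (SE 0.111, edgeR adjusted p = 0.0162), falling to 0.039 without TMM scaling. In cells below the limit it was −0.16 (SE 0.251, interval of 2 SE −0.66 to 0.34, edgeR adjusted p = 0.633). Of the 5 members testable in Fabp6-high cells besides the gating gene, 3 were higher, where 46.5% of 8692 genes passed. Of the 6 testable below the limit, 2 were higher and 1 was lower, where 56.7% of 12447 genes passed. The gate rests on a gene that differs between the labels, so the cells on each side of it need not be matched. Villus tip genes also differed between the labels within Fabp6-high cells, as given below.

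Fgf15 rose within Fabp6-high cells as well. It was at 7.87, 8.88 and 22.7 CPM in control and 40.2, 45.9 and 35.3 CPM in IE-HuR-/- thinned Fabp6-high cells, and the groups did not overlap (exact permutation p = 0.1, n = 3 each). The control values rest on 2, 3 and 4 UMIs, and control replicate 3 stood well above the other two. The unthinned fit gave a log2 fold change of 1.74 (SE 0.176, edgeR adjusted p = 5.92e-09). In the other cells it was at 0.965 ± 0.287 and 1.122 ± 0.731 CPM, and the fit below the limit gave −0.078 (SE 0.226, edgeR adjusted p = 0.789). Of the IE-HuR-/- Fgf15 UMIs, 73 of 89 lay in Fabp6-high cells (82.0%, exact 95% interval 72.5 to 89.4%), against 9 of 31 in control (29.0%, 14.2 to 48.0%).

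The exporter subunits parted within these cells. Slc51b was higher in IE-HuR-/- Fabp6-high cells, at 817 ± 21.7 against 678 ± 38.4 CPM (log2 fold change 0.54, SE 0.0682, edgeR adjusted p = 1.13e-08), and higher below the limit too (0.30, SE 0.0434, edgeR adjusted p = 1.29e-06). Slc51a had the lower level in IE-HuR-/- Fabp6-high cells after thinning, at 845 ± 35.7 against 1246 ± 200 CPM, with groups apart. Its TMM-scaled log2 fold change was −0.13 and did not pass (SE 0.0686, interval of 2 SE −0.27 to 0.0067, edgeR adjusted p = 0.117), and without TMM scaling it was −0.48 (edgeR adjusted p = 2.32e-08). Leaving out TMM moved the median of all genes in Fabp6-high cells to −0.38. Below the limit Slc51a stood at −0.073 (edgeR adjusted p = 0.153).

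Nr1h4 did not pass in Fabp6-high cells (log2 fold change 0.057, SE 0.101, edgeR adjusted p = 0.675). Below the limit it was lower (−0.16, SE 0.0651, edgeR adjusted p = 0.0431), a call that 3 of 6 single-library exclusions removed (control replicate 1, giving −0.15, and the first or second IE-HuR-/- library, giving −0.16 and −0.092). Nr0b2 was higher below the limit (0.68, SE 0.202, edgeR adjusted p = 0.00509). In thinned Fabp6-high cells Nr0b2 had 0 of 24 UMIs in control and 4 of 39 in IE-HuR-/- libraries, and at full depth 0, 0 and 0 UMIs in control and 16, 9 and 10 in IE-HuR-/- libraries.

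Gating on Slc10a2 in place of Fabp6 left 547 control and 729 IE-HuR-/- cells, with 121 to 255 per library. Of the 5 members testable there, 4 were higher, where 36.8% of 8572 genes passed. Fabp6 rose from 7013, 7418 and 7714 CPM to 18648, 18913 and 18217 CPM (log2 fold change 1.59, SE 0.0678, edgeR adjusted p = 1.20e-15), with no overlap. Fgf15 rose from 13.2, 12.6 and 24.1 CPM to 52.4, 51.3 and 35.9 CPM (1.79, SE 0.260, edgeR adjusted p = 0.00103). Slc51b rose from 575, 582 and 599.5 CPM to 818, 795 and 808 CPM (0.72, SE 0.0639, edgeR adjusted p = 1.71e-09).

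Slc51a and Nr1h4 differed less in Slc10a2-positive cells. Slc51a was at 1164, 1075 and 1370.1 CPM in control and 1048, 1014 and 1059 CPM in IE-HuR-/- libraries, which all lay below the controls on this unscaled level. Its TMM-scaled log2 fold change was 0.050 (SE 0.0755, interval of 2 SE −0.10 to 0.20, edgeR adjusted p = 0.643), and without TMM scaling it turned to −0.21 (edgeR adjusted p = 0.0232). Nr1h4 was at 59.4, 47.6 and 54.2 CPM and 53.9, 54.5 and 55.4 CPM, with overlapping groups, and its log2 fold change of 0.29 (SE 0.103, edgeR adjusted p = 0.0302) was 0.029 without TMM scaling. Leaving out control replicate 2 or any of the 3 IE-HuR-/- libraries also removed the Nr1h4 call, with values of 0.20 to 0.30.

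**Figure D4:**
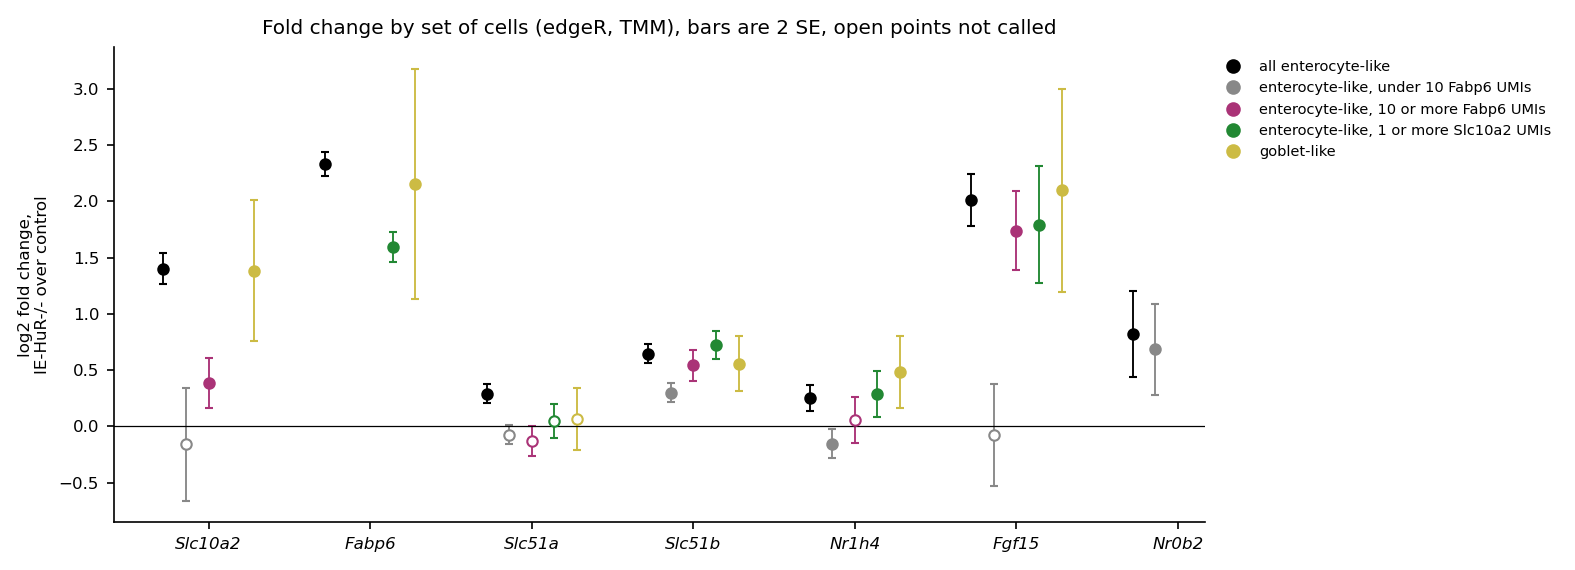
The log2 fold change of each member, IE-HuR-/- over control, in 5 sets of cells (all enterocyte-like, those below and above 10 Fabp6 UMIs, those with a Slc10a2 UMI, and goblet-like), with bars of 2 SE and open points where the edgeR adjusted p missed 0.05. Slc10a2 stands at 1.40 in all enterocyte-like cells and at −0.16 and 0.38 on the 2 sides of the Fabp6 limit, whereas Fgf15 stands at 1.74 above the limit and Slc51b is above 0 in every set.

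Cells with 3 or more Slc10a2 UMIs held more Fabp6, Slc51a, Slc51b, Fgf15 and Nr1h4 on average than cells with none, under both labels. The averages of Fgf15 and Nr1h4 in IE-HuR-/- cells did not rise at every step, and single control libraries also fell at some. Fabp6 in control replicate 1 went from 10661 CPM at 2 Slc10a2 UMIs to 8149 CPM at 3 or more. Fabp6 averaged 518, 4520 and 7989 CPM in control cells with 0, 1 and 2 Slc10a2 UMIs, and 10480.2 CPM in those with 3 or more. In IE-HuR-/- cells the averages were 1654, 10969, 16380.2 and 23357 CPM. Control cells with 3 or more UMIs numbered 115, with 19 in control replicate 3, so single values of that bin are loose. In every bin the lowest IE-HuR-/- library exceeded the highest control library for Fabp6.

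Slc51a rose from the bin of 0 to that of 3 or more from 179.9 to 1891 CPM in control and from 178 to 1312 CPM in IE-HuR-/- cells. Slc51b rose from 169 to 891 CPM and from 229 to 988 CPM, and Fgf15 from 0.792 to 23.4 CPM and, by way of 25.6 and 20.8, from 2.12 to 86.2 CPM. Nr1h4 rose from 13.9 to 129 CPM in control. In IE-HuR-/- cells it went from 13.8 to 28.3, 39.8 and 39.4 CPM, with libraries spread from 8.47 to 70.2 CPM in the top bin against 105 to 161 CPM in control. Few UMIs underlie these bins, with 58 and 48 Nr1h4 UMIs in all thinned Slc10a2-positive cells of control and IE-HuR-/- libraries. At full depth the Nr1h4 level of those cells averaged 53.7 and 54.6 CPM. Nr0b2 was too sparse to follow in thinned bins. At full depth it was at 0.358, 0.584 and 0.430 CPM in control and 3.00, 1.07 and 1.61 CPM in IE-HuR-/- Slc10a2-positive cells, from 1 to 12 UMIs per library, and at 0.748 to 1.21 CPM and 1.32 to 1.53 CPM in Slc10a2-negative cells.

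**Figure D5:**
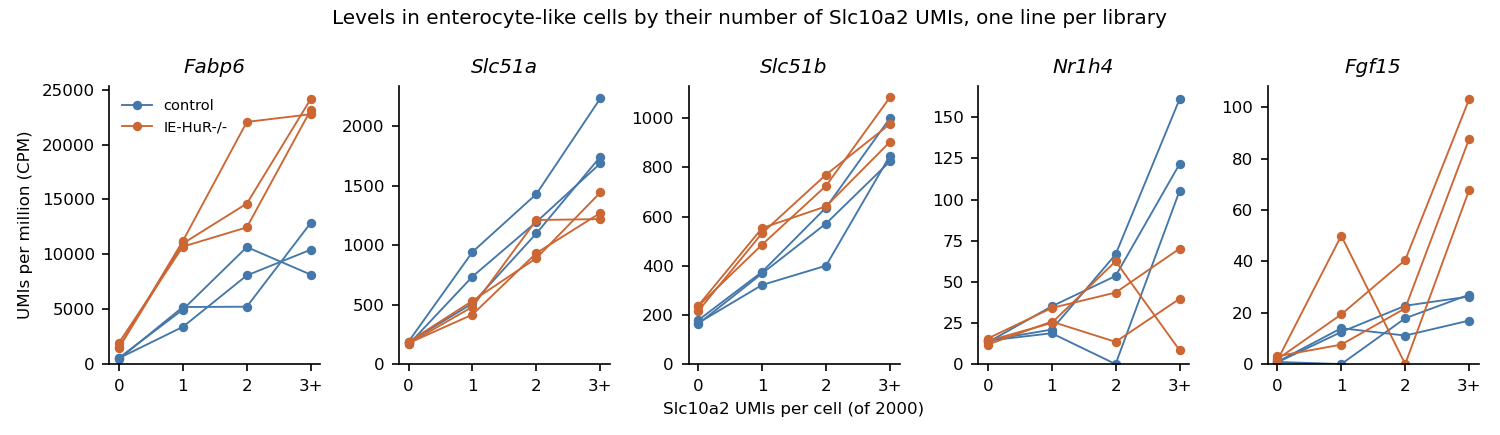
Level of 5 members, in CPM, in thinned enterocyte-like cells grouped by their number of Slc10a2 UMIs, with 1 line per library and linear axes that start at 0. Control averages of all 5 rose with Slc10a2, though single control lines fell at some steps, and Fabp6 lay higher in IE-HuR-/- cells in every bin. Nr1h4 in the bin of 3 or more averaged 129 CPM in control and 39.4 CPM in IE-HuR-/- cells, from few UMIs. All thinned Slc10a2-positive cells held 58 and 48 Nr1h4 UMIs, and at full depth they averaged 53.7 and 54.6 CPM.

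The genes whose pattern was most like that of Slc10a2 were ranked by the lowest library's log2 ratio between Slc10a2-positive and -negative thinned cells, among 2472 genes and over 6 libraries. Fabp6 ranked 1 (lowest library 2.84) and Slc51a ranked 4 (1.93). Tmigd1, which encodes a brush border membrane protein, ranked 2 at 2.49 and Mgat4c, a glycosyltransferase gene, ranked 3 at 2.25. The next were Slc25a48 at 1.90, Suox at 1.81, Neu1 at 1.74, Prss23 at 1.69, the brush border protease Mep1a at 1.63 and Sqle, an enzyme of cholesterol synthesis, at 1.62. Since the ranking used the lowest of the 6 libraries, positive ratios under both labels follow from it.

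Across cell classes, levels are given as means over the 6 libraries. Slc10a2 was at 82.4 CPM in enterocyte-like, 109 in goblet-like, 41.7 in tuft-like, 14.6 in enteroendocrine-like, 13.8 in progenitor-like and 11.3 in T or NK-like cells. Fabp6 was at 1829, 1964, 1007, 259, 511 and 117 CPM in the same order. Slc51a and Slc51b were highest in enterocyte-like cells, at 305 and 240.2 CPM, then in goblet-like cells at 222 and 154 CPM, and at 21.8 and 14.1 CPM in T or NK-like cells. Of 35 comparisons of enterocyte-like with another class of the same library, 0 passed 0.05 after adjustment (smallest exact sign-flip adjusted p = 0.0576), and 6 paired libraries with this number of comparisons could pass it only where most of them gave the smallest possible p. Slc10a2 was the higher in goblet-like cells in 6 of 6 libraries, and Slc51a and Slc51b in enterocyte-like cells in 6 of 6, while the order of enterocyte-like and goblet-like cells for Fabp6 was split 3 and 3. Tuft-like and progenitor-like levels of Fabp6 spread too widely to be ordered, from 17.4 to 3157 CPM in tuft-like and from 12.4 to 686 CPM in progenitor-like control libraries. Another 2156 epithelial cells missed the enterocyte minimum and every other class, and were not compared. Their Fabp6 level was higher, at 2009 ± 1298 CPM in control and 3898 ± 385 CPM in IE-HuR-/- libraries (SD, n = 3 each). Nr1h4 was at 31.8 and 33.8 CPM there. The part of the gate in these levels was not tested.

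Goblet-like cells showed the same direction with wider spread. Fabp6 was at 799 ± 496 CPM in control and 3129 ± 556 CPM in IE-HuR-/- goblet-like cells (SD, n = 3 each, log2 fold change 2.15, SE 0.513, edgeR adjusted p = 0.0464). Slc10a2 had a log2 fold change of 1.38 (SE 0.312, edgeR adjusted p = 0.0335) and Fgf15 of 2.10 (SE 0.452, edgeR adjusted p = 0.00629). In all, 5 of 6 tested members were higher, where 27.1% of 9066 genes passed. Leaving out any 1 library left 2 to 4 of them called, and only Fgf15 and Slc51b passed in every such fit. Goblet-like cells held a median of 16607 UMIs against 1408 in enterocyte-like cells, and 15 of 586 control and 42 of 392 IE-HuR-/- goblet-like cells were Fabp6-high. The part of cell doublets in these values was not tested. In enteroendocrine-like cells 0 of 5 tested members passed, where 59 of 8852 genes (0.667%) did and 995 had an unadjusted p under 0.05. Fabp6 rested there on 147 and 1169 UMIs (39.9 ± 37.7 and 478 ± 286 CPM, edgeR adjusted p = 0.282).

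Beyond the members, the bile acid pathway list held 42 genes, of which 36 could be tested in enterocyte-like cells. Of these, 17 were higher and 13 lower (83.3% called), where 26.5% of all genes were higher and 31.3% lower. Without the members the counts were 10 higher and 13 lower of 29 (79.3% called, beside 57.8% of all genes). The median log2 fold change of these was −0.097, beside 7 of 7 higher among the members. Abcc4, Gpbar1, Fgfr4, Klb, Cyp7a1 and Cyp8b1 had too few UMIs, from 0 to 53 in all enterocyte-like cells. CYP7A1 and CYP8B1, at 0 here, are enzymes of hepatic bile acid synthesis.

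Among other transporters of bile acids and conjugates, the efflux pump genes Abcc3 (log2 fold change 0.71) and Abcg2 (0.83) were higher. Abcc2 (−0.31), Abcb1a (−0.60) and Slco2b1 (−0.69) were lower. The fatty acid binding protein genes Fabp1 (0.37) and Fabp2 (0.79) were higher, both of which also served as markers of the enterocyte gate. Fabp6 with 2.33 stood well beyond its 2 relatives.

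Of the receptors and their partners, Vdr (−0.30), which senses vitamin D and lithocholic acid, Nr1i3 (−0.40) and the FXR partner gene Rxra (−0.23) were lower. Nr1i2 (0.078, edgeR adjusted p = 0.0969) and S1pr2 (−0.0097, edgeR adjusted p = 0.986) did not pass. Malrd1, which promotes FGF15 output, was lower in all enterocyte-like cells (−0.36) and below the Fabp6 limit (−0.69) but higher in Fabp6-high cells (0.27, edgeR adjusted p = 0.00421) and in Slc10a2-positive cells (0.33, edgeR adjusted p = 0.00199). Among transcription factors of the enterocyte, Hnf4a was higher (0.34) and Cdx2 (−0.57), Nr5a2 (−0.55) and Gata6 (−0.097) were lower. Hnf4g and Gata4 did not pass. Leaving out TMM moved the median of all genes from −0.038 to −0.19 and the share of passing genes that were higher from 45.8 to 24.7%, which bears on values as small as that of Gata6. It moved that median from −0.032 to −0.38 in Fabp6-high cells and from −0.018 to −0.28 in Slc10a2-positive cells. These shifts bear on the Malrd1 values in those cells, which are given with TMM scaling only.

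Of 5 enzyme genes that oxidise or conjugate bile acids and drugs, 3 were lower and 1 was higher (80% called, beside 57.8% of all genes). Their median log2 fold change was −0.44. Cyp3a11 fell from 2188 ± 113 to 516 ± 14.2 TMM-scaled CPM (log2 fold change −2.08, SE 0.0459, edgeR adjusted p = 4.84e-21, n = 3 each). Cyp27a1 (−1.24) and Cyp3a13 (−0.44) were lower too, Sult2b1 (0.22) was higher and Ugt1a1 did not pass. The ileal genes known to respond to FXR outside bile acid transport, Nos2 (0.52), Ang (0.33), Il18 (0.14) and Car12 (0.71), were higher, 4 of 4, where 26.5% of all genes were. Within Fabp6-high cells Nos2 (1.83) and Il18 (0.65) were higher, and Ang (0.17, edgeR adjusted p = 0.196) and Car12 (−0.42, edgeR adjusted p = 0.114) did not pass. Below the limit Car12 (0.51) and Il18 (0.19) were higher and Nos2 (−0.67) and Ang (−0.17, edgeR adjusted p = 0.0408) were lower.

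Position along the intestine and the villus is known to set the level of the members, so genes that mark position were read beside them. Of 20 proximal genes, 2 were higher and 13 lower (75% called, beside 57.8% of all genes), with a median log2 fold change of −0.23. The largest falls were those of the iron absorption genes Cybrd1 (−1.93) and Slc40a1 (−1.61), of Cyp2c66 (−1.21) and of the lactase gene Lct (−0.82). Cybrd1 was low, at 4.16 and 1.07 TMM-scaled CPM in control and IE-HuR-/- libraries (SE 0.478, edgeR adjusted p = 0.0261). Of 14 distal genes, 5 were higher and 2 lower (50% called), with a median of 0.22. Tmigd1 (1.03), Enpp7 (0.75) and Clec2h (0.60) were higher, and Cubn (−0.73), the ileal receptor for the vitamin B12 carrier, was lower. In Fabp6-high cells 2 of 13 testable distal genes were higher and 4 lower (46.2% called, beside 46.5% of all genes). Tmigd1 (0.059, edgeR adjusted p = 0.590) and Clec2h (0.0099, edgeR adjusted p = 0.913) did not pass there. Of 7 villus tip genes 5 were higher and 1 lower in enterocyte-like cells (85.7% called, beside 57.8% of all genes). Among the higher were Egfr (1.15), Nt5e (0.78), Ada (0.71) and Slc28a2 (0.66). In Fabp6-high cells 5 of the 7 tip genes were higher and 0 lower (71.4% called, beside 46.5% of all genes), with a median of 1.98. There Slc28a2 stood at 3.02, Ada at 2.59, Egfr at 2.48 and Nt5e at 1.98. Below the limit 6 tip genes were higher and 0 lower (85.7% called, beside 56.7% of all genes), with a median of 0.73. Of 7 lower villus genes 5 were higher and 2 lower in enterocyte-like cells (100% called, beside 57.8% of all genes). Reg3b stood at 2.38, Reg3g at 2.14, Gsdmc4 at 1.78 and Reg1 at −1.38. The part of position in the members' change was not tested, and a difference between labels in the segments sampled cannot be told apart from one in expression.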

How the data were processed

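The authors deposited filtered matrices of raw UMI counts per gene and cell, 1 per library. File headers name cellranger 6.1.2, and the labels name mm10, Cell Ranger, Seurat and a 5′ kit, whereas the methods name a 3′ kit and a human reference. The genes in the files are mouse genes. The paper's legends for the single-cell results give values as means over animals, as many as there are libraries of a label. That number would allow 1 mouse per library, but which animals entered which library is not stated. The p-values measure the spread between libraries.

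The following was computed here. Barcodes with at least 200 genes were kept. Classes were gated on the share of a cell's UMIs in marker lists (enterocyte-like, at least 2%; T or NK-like, at least 3%; goblet-like, at least 5%), with limits set after the distributions had been seen. No doublet caller was run, and 630 cells with markers of several kinds were left out. Counts were summed per library and class and tested with edgeR 4.0.16 (TMM, filterByExpr, quasi-likelihood, Benjamini-Hochberg, threshold 0.05) in R 4.3.3, after a check on simulated counts. Classes with fewer than 20 cells in a library were not tested. Shares used cells thinned to 2000 UMIs and exact two-sided permutation tests over libraries (scipy 1.17.1). No set test was run. The members and all lists were chosen with earlier results of these data known, so list counts are not independent evidence. Named genes were the members, Elavl1, pathway genes that passed or are receptors or transporters, up to 4 genes of each position list with the largest change, and the 8 other genes most like Slc10a2. CPM used a 20 CPM pseudocount for likeness and 1 CPM for class comparisons. Alternatives were DESeq2 1.42.0, no TMM, no filter, other gates and depths, a replicate block and each library left out. The Fabp6-high minimum was chosen after seeing the data.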

Additional observations from a re-analysis of the deposited data

How the results depend on the processing

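The 7 members stayed higher and past 0.05 in enterocyte-like cells under DESeq2, no filter on low counts, stricter cell filters, a doubled gate, equal totals, the replicate block and each library left out. The exception among these fits was Nr1h4 without TMM scaling (0.10, edgeR adjusted p = 0.129). Unscaled levels over all thinned enterocyte-like cells overlapped between labels for Nr1h4 and Slc51a. Slc51a was there at 224 ± 19.6 CPM in control and 233 ± 12.1 CPM in IE-HuR-/- libraries (SD, n = 3 each). Nr1h4 was at 15.7 ± 0.983 and 15.6 ± 2.38 CPM. DESeq2 called 6240 genes in all. Over 15 alternatives the log2 fold change of Fabp6 ran from 2.14 to 2.39, of Slc10a2 from 1.10 to 1.46 and of Fgf15 from 1.69 to 2.13.

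Several small values turned sign, and the cause was not tested. In Slc10a2-positive cells Slc51a was −0.21 without TMM, −0.024 without control replicate 2 (up to 0.16 without another library) and −0.091 in cells with at least 2 Slc10a2 UMIs. In Fabp6-high cells Nr1h4 was −0.29 without TMM. Below the limit Fgf15 was 0.16 without the first control and 0.031 without the second IE-HuR-/- library, with others down to −0.29. In goblet-like cells Slc51a ran from −0.044 to 0.25 with 1 library left out, below 0 without control replicate 1 (−0.017) or the second IE-HuR-/- library. The log2 odds ratio of Slc10a2 and Fabp6, lower in IE-HuR-/- cells at 1 UMI, was 0.32 higher at 2 UMIs. The share of Slc10a2-positive among Fabp6-positive cells, 3.59 percentage points lower in IE-HuR-/- cells, was 0.0405 points higher without thinning and ran from −6.30 to 0.454 points with 1 library left out, above 0 without control replicate 3.

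Leaving out 1 library left 2 to 4 members called in goblet-like cells, 2 to 4 proximal genes higher, 1 to 2 distal genes lower and 0 to 1 tip genes lower. Without TMM 1 proximal gene was higher. The gate on a UMI of Clec2h or Cubn in place of Slc10a2 kept most enterocyte-like cells and called 7376 genes.

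Libraries share replicate numbers across labels. Deviations of same-numbered libraries correlated at −0.0182, −0.153 and −0.0835, and those of other pairs at −0.0438 to 0.125. With 3 libraries per label, these values cannot decide whether the numbers pair libraries. With the replicate block 7295 genes were called in enterocyte-like cells, with Slc10a2 at 1.40, and the block removed only the goblet-like call of Fabp6 (2.30, edgeR adjusted p = 0.102). Fgf15 and Nr0b2 are limited by depth, with 31 and 24 UMIs in the thinned control cells. The Fabp6-high and goblet-like alternatives were chosen after seeing the data.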

Other observations

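Among the genes ranked after the 8 named as most like Slc10a2 were Hmgcs1 and Cyp51, which encode enzymes of cholesterol synthesis. They were picked after their values had been seen, and the other genes of that pathway were not counted. Hmgcs1 ranked 12 of 2472 genes by the lowest library's log2 ratio between Slc10a2-positive and -negative cells (1.55, with 218 against 52.3 CPM) and Cyp51 ranked 15 (1.43, with 99.02 against 14.7 CPM). The ratios were close under both labels, with means of 1.78 in control and 1.65 in IE-HuR-/- libraries for Hmgcs1 and 1.89 and 1.605 for Cyp51. Reg3b, an antimicrobial lectin gene, ranked 11 (1.59) and the guanylin gene Guca2a 13 (1.52). No test was made of these values.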
